A study of Mus musculus with 3 samples.

Results

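REST and its corepressors were followed as 6 genes, Rest, Rcor1, Rcor2, Rcor3, Kdm1a and Sin3a, of the 31053 genes counted in single cells of 3 fresh R26-SHH mouse rhabdoid tumours. The genes were taken by their symbols, from a list chosen with earlier results of these data known, and all 6 were present in the 3 tumours. Each tumour came from a different mouse of the genotype Rosa 26-CreERT2::Smarcb1flox/flox, in which tamoxifen activates a Cre recombinase that removes Smarcb1, which encodes a core part of SWI/SNF, a complex that remodels chromatin. The Cre is expressed from the Rosa26 locus and is not restricted to a cell type, the cells were not sorted, and no mouse without recombination was analysed here. All comparisons were therefore made between classes of cells of the same tumours, and the tumour was the replicate. Tumours 1, 2 and 3 held 79529921, 40151353 and 67645602 unique molecular identifiers (UMIs, counted RNA molecules) in 12467, 9485 and 6428 barcodes, and after filtering the median cell had 7130.5, 2364.5 and 8192 UMIs. Pairs of tumours shared 14 to 18 cell barcodes.

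REST is a zinc finger protein that binds the RE1 element near neuronal genes and keeps them silent in stem cells, progenitors and cells outside the nervous system. One end of the protein recruits SIN3A, a scaffold for histone deacetylases. The other end recruits a CoREST protein, encoded by Rcor1, Rcor2 or Rcor3, which carries KDM1A (LSD1), a histone demethylase. In normal development REST is lost as neural progenitors become neurons, and neuronal genes such as Stmn2, Snap25 and Syt1 are then transcribed.

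Cells were classed by marker genes after each cell had been thinned to 2000 UMIs, and no member, no partner gene and no gene of the target list described here was a marker. The 13 neuronal markers, such as Dcx, Tubb3 and Elavl3, gave 264, 268 and 55 neuronal-like cells in tumours 1, 2 and 3. Progenitor-like cells (Dlx1, Dlx2 and other genes of the ganglionic eminence and of neural progenitors) numbered 868, 301 and 396. Stem-like, mesenchymal-like and cycling cells were the other tumour states, and cells without markers of any state or of a non-tumour type are called cells of no state. The labels call all cells tumour cells, and Smarcb1 was used to check this. Its level was 0 to 1.10 UMIs per 1000000 (CPM) in the 17 sums of tumour states and cells of no state, and 19.7 to 112 CPM in the 13 sums of immune-like, endothelial-like, mural-like, oligodendrocyte-like and OPC-like cells, the latter from markers of oligodendrocyte precursors. These types therefore went against the label. The 33 astro-glial-like cells of tumour 1 had 0 Smarcb1 UMIs, against 23.7 CPM in tumour 2, so this class may not hold the same cells in both tumours. Leaving them out added the call of Rcor1 against immune-like cells (-0.24, adjusted p = 0.0463 in edgeR) and changed no other call of a member.

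Rest (ENSMUSG00000029249, GRCm38 chromosome 5, 77265491 to 77286432, plus strand) had its lowest level in neuronal-like cells. The CPM there were 14.1, 22.4 and 15.8 in tumours 1, 2 and 3, from 26, 36 and 13 UMIs, with exact 95% Poisson intervals of 9.22 to 20.7, 15.7 to 31.1 and 8.43 to 27.1. In the 14 sums of the other tumour states and of the cells of no state, Rest ranged from 80.4 to 124 CPM with a median of 96.1. No sum outside the neuronal-like class, tumour or non-tumour, came down to the neuronal-like range. Among the non-tumour types, endothelial-like cells had 102 ± 4.05 CPM (SD, n = 3) and immune-like cells 75.5 ± 11.3 CPM (SD, n = 3). OPC-like cells were the next lowest after neuronal-like cells, with 49.8 and 33.5 CPM in the 2 tumours that had enough of them. By mean level the order was mesenchymal-like, cycling, endothelial-like, progenitor-like, no state, stem-like, immune-like, astro-glial-like, mural-like, oligodendrocyte-like, OPC-like and neuronal-like. Neighbours in that order overlapped between tumours except for no state and stem-like, immune-like and astro-glial-like, mural-like and oligodendrocyte-like, and OPC-like and neuronal-like.

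**Figure D1:**
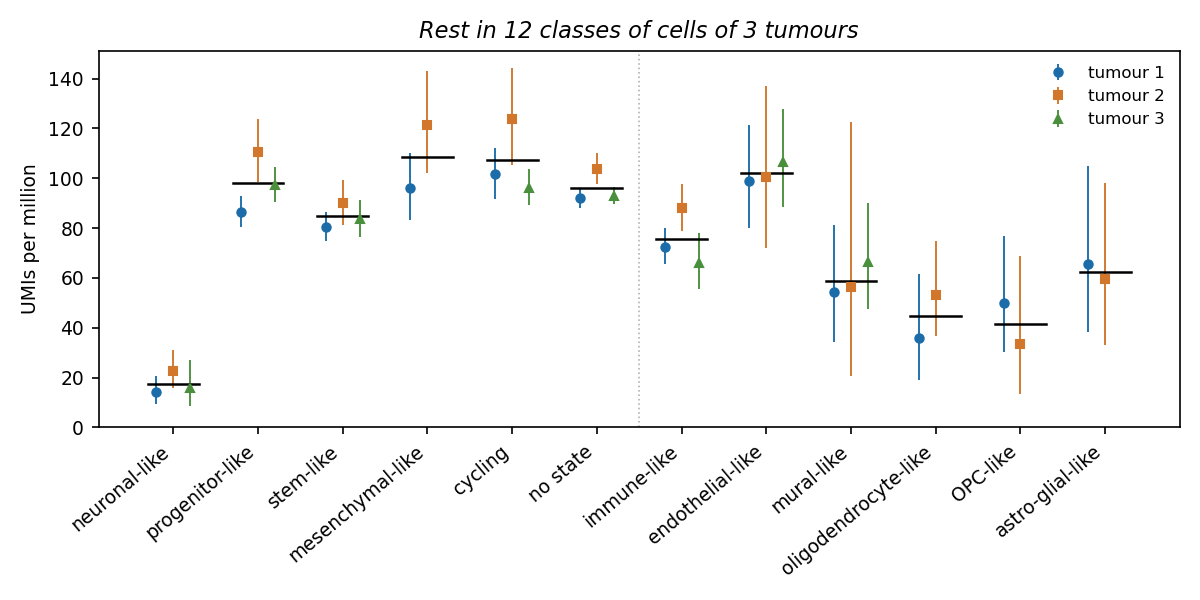
Rest level in CPM (y axis) in 12 classes of cells (x axis), 1 point per tumour with its exact 95% Poisson interval; the short black line is the mean over tumours, and the dotted line separates tumour states and cells of no state (left) from non-tumour types (right). The 3 neuronal-like points, at 14.1 to 22.4 CPM, lie below all others, which start at 33.5 CPM.

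The share of cells with a Rest UMI at equal depth was by its mean likewise lowest in neuronal-like cells, at 3.36% ± 1.73 (SD, n = 3), although the OPC-like cells (3.23%) and the mural-like cells (3.70%) of tumour 2 lay within the neuronal-like range. At 2000 UMIs per cell, 3.03, 5.22 and 1.82% of neuronal-like cells had a Rest UMI, against 12.4, 20.9 and 18.2% of progenitor-like cells in tumours 1, 2 and 3. Without thinning the shares were 7.20, 10.8 and 14.5% against 44.9, 49.2 and 69.9%. Even among progenitor-like cells most had no Rest UMI at 2000 UMIs, so a cell without one cannot be called a cell without Rest. Free RNA in droplets also gives UMIs to cells that do not make a gene, and a cell type lacking Rest, in which this could be measured, was not at hand.

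The first comparison set neuronal-like against progenitor-like cells, the ends of neuronal commitment in the study. Of the 6 members 3 had an adjusted p under 0.05, Rest and Rcor1 lower and Rcor2 higher, where 25.2% of all 14630 genes tested did (12.6% higher and 12.6% lower). All tests between classes are edgeR's quasi-likelihood test on counts summed per tumour and class, with Benjamini-Hochberg adjustment over all genes. Rest was 86.6, 111 and 97.3 CPM in progenitor-like cells of tumours 1, 2 and 3, against the neuronal-like values above, and the groups did not overlap. Rest was 6.18-fold lower in neuronal-like cells (log2 difference -2.63, SE 0.167, adjusted p = 1.39e-11 in edgeR). It was called in 13 of 13 alternatives, between -2.81 and -1.85. The other members had smaller differences. Markers of other cell types moved with the classes. The summed immune markers (12 genes) were 82.5, 145 and 43.9 CPM in neuronal-like and 56.9, 121 and 28.8 CPM in progenitor-like cells of tumours 1, 2 and 3. The oligodendrocyte markers (8 genes) were 79.2, 285 and 41.4 against 50.2, 191 and 27.7 CPM, so both lists were higher in neuronal-like cells of 3 of 3 tumours. The mural markers (9 genes) were lower in 3 of 3, with 10.3, 9.35 and 6.09 against 23.5, 23.1 and 15.7 CPM. The astro-glial markers (7 genes) were higher in tumours 1 and 3 only, with 314, 248 and 490 against 197, 281 and 142 CPM, and in tumour 3 only 2 of the 7 genes were seen in neuronal-like cells. The median depth was 5240.5 to 14744 UMIs in neuronal-like and 7976 to 19324 in progenitor-like cells. The part of these values in the result was not tested.

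Sin3a (ENSMUSG00000042557, chromosome 9, 57072040 to 57128366, plus strand), the scaffold at the other end of REST, had 36.4, 31.2 and 47.5 CPM in neuronal-like and 47.8, 41.4 and 38.9 CPM in progenitor-like cells. The groups overlapped, and the log2 difference of -0.36 (SE 0.204) did not pass the edgeR test (adjusted p = 0.209). In cycling cells Sin3a was 49.3, 54.9 and 49.2 CPM, above all progenitor-like values, but the log2 difference of 0.26 did not pass either (adjusted p = 0.367 in edgeR), and it was -0.00 with the thinned UMIs. The antisense gene Man2c1os overlaps the 3' end of Sin3a.

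Rcor1 (ENSMUSG00000037896, chromosome 12, 111039351 to 111115901, plus strand) encodes CoREST itself, which links KDM1A to REST. It fell together with Rest from progenitor-like to neuronal-like cells, from 50.1, 52.8 and 92.9 CPM to 36.9, 30.6 and 48.7 CPM in tumours 1, 2 and 3. The groups did not overlap, and tumour 3 was the highest in both. Rcor1 was 1.83-fold lower (log2 difference -0.87, SE 0.143, adjusted p = 3.39e-05 in edgeR). The call was lost in 1 of 13 alternatives, the sums of thinned UMIs, at -0.33 (adjusted p = 0.457). Stem-like cells had 42.9, 44.9 and 65.3 CPM and cycling cells 54.5, 61.8 and 91.3 CPM, and neither differed from progenitor-like cells past the threshold (adjusted p = 0.0963 for stem-like cells in edgeR; 0.0469 in DESeq2).

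Rcor2 (ENSMUSG00000024968, chromosome 19, 7267325 to 7275225, plus strand), the CoREST gene known from embryonic stem cells and the developing brain, ran the other way. Neuronal-like cells had 45.0, 20.6 and 101 CPM in tumours 1, 2 and 3, from 83, 33 and 83 UMIs, against 26.9, 17.2 and 28.9 CPM in progenitor-like cells. Neuronal-like cells were higher in each tumour, yet the ranges overlapped, because tumour 2 was low in both classes. This gave 0.88 on the log2 scale (SE 0.304, adjusted p = 0.033 in edgeR). It was called in 8 of 13 alternatives and lost without tumour 1 (1.12, adjusted p = 0.198), without tumour 3 (0.44, adjusted p = 0.245), with no replicate block (0.98, adjusted p = 0.12), with gating at 1000 UMIs (0.66, adjusted p = 0.139) and with thinned UMIs (0.83, adjusted p = 0.177).

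Outside these classes the mean level of Rcor2 was lower. It was 5.74, 5.02 and 3.11 CPM in stem-like cells, 9.21 and 7.74 CPM in mesenchymal-like cells of tumours 1 and 2, and 10.2, 10.0 and 12.6 CPM in cycling cells. Immune-like cells had 8, 9 and 2 Rcor2 UMIs (1.52, 2.33 and 0.95 CPM) and endothelial-like cells 1, 0 and 2 UMIs. Per cell at 2000 UMIs, 6.06, 4.85 and 21.8% of neuronal-like cells had an Rcor2 UMI. Immune-like cells, with median depths of 6805 to 10339.5 UMIs against 5240.5 to 14744 in neuronal-like cells, had one in 0 to 0.546% of cells. The highest share was 5.05% among the sums of the other tumour states and of no state. It was 6.45% among the non-tumour sums, so both exceeded the 4.85% of neuronal-like cells in tumour 2.

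Rcor3 (ENSMUSG00000037395, chromosome 1, 192098546 to 192138062, minus strand), whose protein binds KDM1A but is known as the weakest of the CoREST proteins in aiding demethylation, was not called. It was 28.8, 59.2 and 28.0 CPM in neuronal-like and 22.5, 34.8 and 24.7 CPM in progenitor-like cells, a log2 difference of 0.33 (SE 0.202) that did not pass the edgeR test (adjusted p = 0.255). It was higher in 3 of 3 tumours, tumour 2 was the highest in both classes, and the ranges overlapped. Kdm1a (ENSMUSG00000036940, chromosome 4, 136550540 to 136602723, minus strand), the demethylase, was 358, 230 and 267 CPM in neuronal-like and 262, 247 and 206 CPM in progenitor-like cells. It was higher in 2 of 3 tumours, with a log2 difference of 0.10 (SE 0.161, adjusted p = 0.719 in edgeR). At their 3' ends Rcor3 is overlapped by Gm26879 and Kdm1a by Luzp1, both on the opposite strand.

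**Figure D2:**
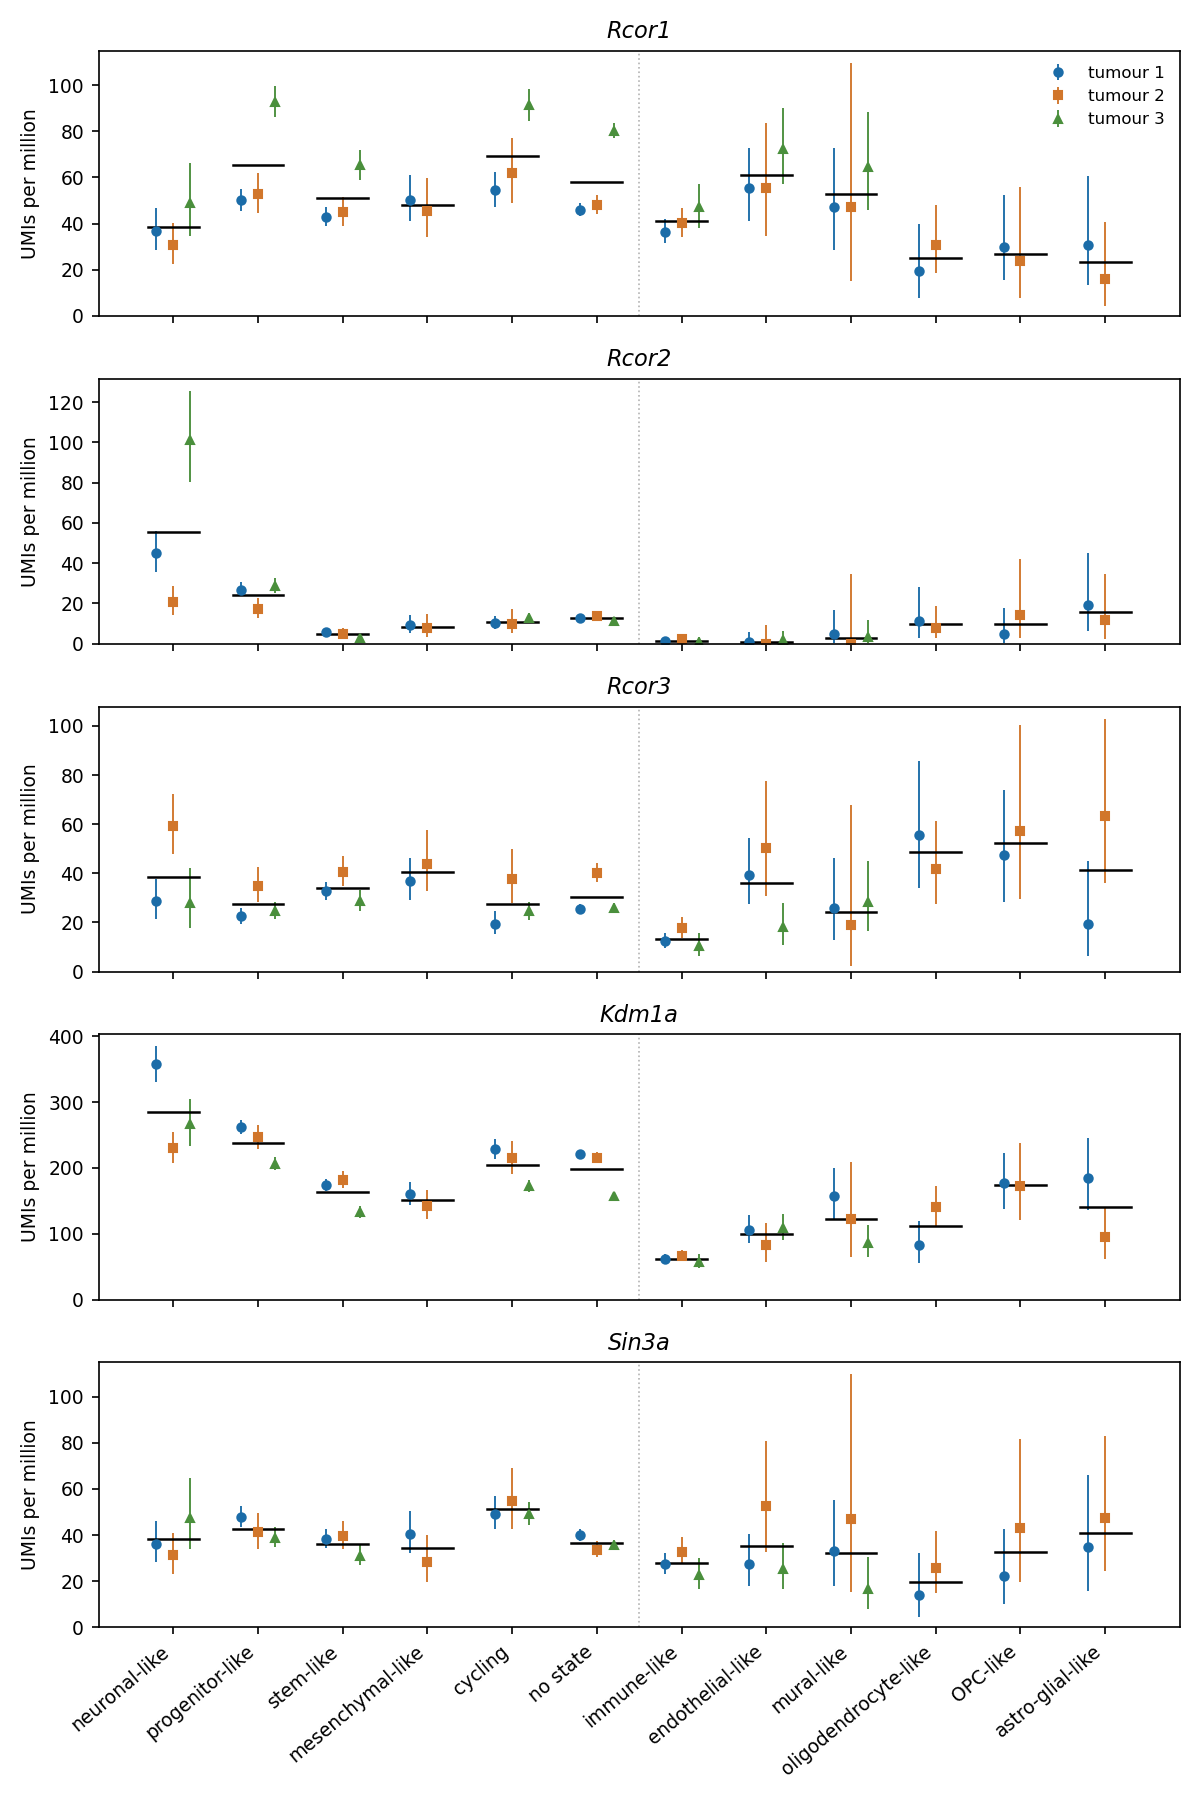
Levels in CPM (y axes, 1 panel per gene, each on its own scale starting at 0) of the 5 corepressor genes in 12 classes of cells (x axis), 1 point per tumour with its exact 95% Poisson interval and the mean over tumours as a black line. Rcor2 is highest in neuronal-like cells (20.6 to 101 CPM) and lowest in endothelial-like and immune-like cells; the levels of different genes are not comparable, since molecules were counted from the 3' end.

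In the less differentiated states the changes among the members fell on Rcor2 and Kdm1a, while Rest was not called. These comparisons share the progenitor-like cells with the one above. Stem-like against progenitor-like cells called 2 of 6 members, both lower, against a background of 12.9% of genes (8.15% higher and 4.78% lower). Rcor2 was lower by 2.34 on the log2 scale (log2 difference -2.34, SE 0.33, adjusted p = 1.88e-05 in edgeR), 5.05-fold, and no stem-like tumour reached a progenitor-like value. This call was lost only without tumour 1 among 13 alternatives (-2.42, adjusted p = 0.051). Kdm1a was 174, 182 and 133 CPM in stem-like cells, below the 206 to 262 CPM of progenitor-like cells. Its log2 difference was -0.53 (SE 0.158, adjusted p = 0.0255 in edgeR), and the call was lost without tumour 1 (adjusted p = 0.361), without tumour 3 (adjusted p = 0.0741), with no replicate block (adjusted p = 0.309) and with thinned UMIs (adjusted p = 0.203). Without tumour 1 neither member was called. Rest in stem-like cells was 80.4, 90.1 and 83.5 CPM, a log2 difference of -0.18 (SE 0.126, adjusted p = 0.371 in edgeR). Astro-glial markers were 383, 556 and 269 CPM in stem-like against 197, 281 and 142 CPM in progenitor-like cells. The mural markers were 69.0, 33.8 and 54.0 against 23.5, 23.1 and 15.7 CPM and the OPC markers 72.9, 79.6 and 35.7 against 33.2, 37.0 and 26.6 CPM, so these 3 lists were higher in 3 of 3 tumours, and their part in the result was not tested.

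Mesenchymal-like cells, with 196 and 136 cells in tumours 1 and 2 and too few in tumour 3, called the same 2 members lower (background 22.5%, with 12.6% higher and 9.86% lower). Kdm1a was 161 and 143 CPM there, a log2 difference of -0.73 (SE 0.19, adjusted p = 0.00548 in edgeR), called in 10 of 13 alternatives and lost without tumour 1 (adjusted p = 0.268), with no replicate block (adjusted p = 0.125) and with thinned UMIs (adjusted p = 0.144). Rcor2 had a log2 difference of -1.38 (SE 0.446, adjusted p = 0.0248 in edgeR), called in 7 of 13 alternatives. It was lost without tumour 1 (adjusted p = 0.606), without tumour 2 (adjusted p = 0.0874), with no replicate block (adjusted p = 0.0532), in DESeq2 (adjusted p = 0.0632), with no doublet removal (adjusted p = 0.079) and with thinned UMIs (adjusted p = 0.61). Without either tumour a single mesenchymal-like sum is left, which is assumed to vary like the other classes. Rest was 96.0 and 121 CPM, a log2 difference of 0.13 (SE 0.151, adjusted p = 0.587 in edgeR). In tumours 1 and 2 the mural markers were 169 and 112 CPM in mesenchymal-like against 23.5 and 23.1 CPM in progenitor-like cells, the endothelial markers 31.0 and 43.0 against 9.26 and 17.96 CPM, the OPC markers 92.1 and 102 against 33.2 and 37.0 CPM and the astro-glial markers 303 and 411 against 197 and 281 CPM, and their part in the result was not tested.

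In cycling cells Rcor2 alone was called, lower than in progenitor-like cells with a log2 difference of -1.17 (SE 0.324, adjusted p = 0.0118 in edgeR), where the background was 15.5% of genes, 8.79% higher and 6.66% lower. The ranges did not overlap, and the call was lost without tumour 1 (adjusted p = 0.371) and with no replicate block (adjusted p = 0.119). Rest was 102, 124 and 96.2 CPM in cycling cells, and its log2 difference of 0.13 (SE 0.128) was not called in edgeR (adjusted p = 0.552) and was -0.09 with the thinned UMIs. Mural markers were 42.0, 40.2 and 27.3 CPM in cycling cells and OPC markers 42.2, 51.8 and 31.4 CPM, both above the progenitor-like values in 3 of 3 tumours. Oligodendrocyte markers (43.5, 149 and 19.7 against 50.2, 191 and 27.7 CPM) and immune markers (52.7, 118 and 25.3 against 56.9, 121 and 28.8 CPM) were lower in 3 of 3. The part of these lists in the result was not tested.

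**Figure D3:**
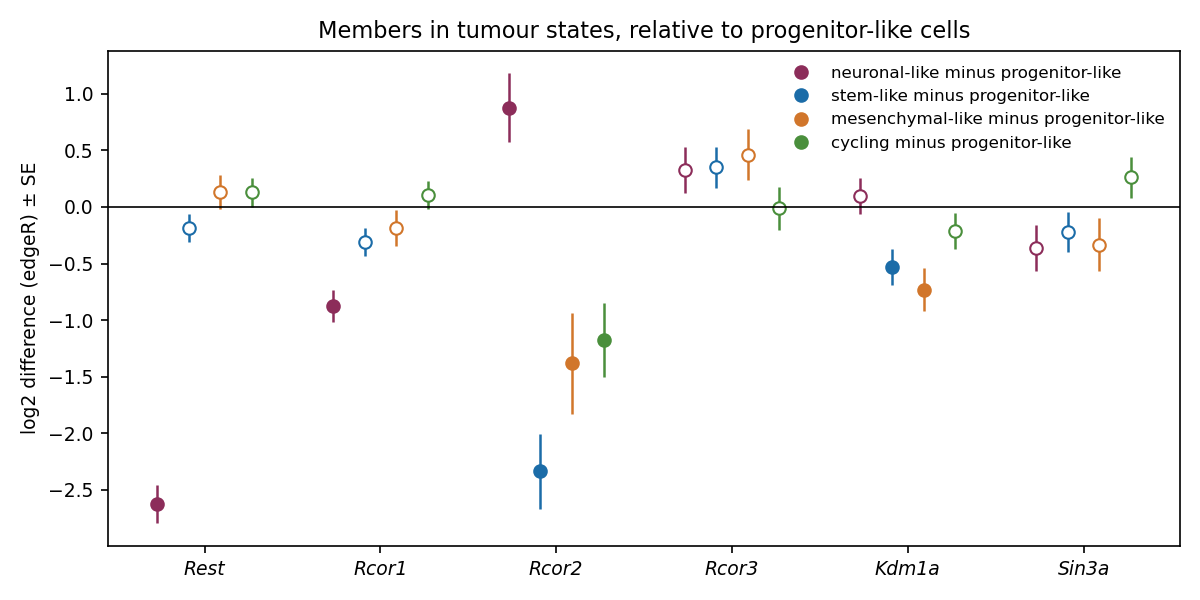
Log2 differences of the 6 members (x axis) between 4 tumour states and progenitor-like cells, from edgeR with scaling by TMM, with bars for 1 SE on each side; filled points have an adjusted p under 0.05. Rest is far below 0 only in neuronal-like cells (-2.63), while Rcor2 is above 0 there and below 0 in the other 3 states. Of the open points, those of Rest, Rcor3 and Sin3a in cycling cells and of Rcor1 in mesenchymal-like cells change sign in some alternatives.

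Against cells of the host, the members differed in size and in how far the result rested on the scaling. The mean of the 5 tumour states (4 in tumour 3, without the mesenchymal-like one) was compared with immune-like and with endothelial-like cells, in fits where 65.8% and 56.4% of all genes were called (higher 36.3% and 32.3%, lower 29.4% and 24.1%). Kdm1a was higher in the tumour states, with 211 ± 22.2 CPM against 61.8 ± 4.37 CPM in immune-like and 99.2 ± 14.2 CPM in endothelial-like cells (SD, n = 3). Its log2 differences were 1.17 (adjusted p = 3.02e-08) and 0.84 (adjusted p = 3.62e-05) in edgeR, called in 14 of 14 alternatives each. Rcor2 was likewise higher, by 2.47 (SE 0.405, adjusted p = 4.68e-06) and 3.46 (SE 0.71, adjusted p = 0.000137) on the log2 scale in edgeR, called in 14 of 14 alternatives each. The 3 Rcor2 UMIs of endothelial-like cells make the size of the second difference imprecise. Rcor3 was called against immune-like cells (0.74, adjusted p = 0.000461 in edgeR), 32.6 ± 9.26 against 13.5 ± 3.70 CPM (SD, n = 3), and this call was lost without tumour 2 (0.53, adjusted p = 0.0543). Against endothelial-like cells Rcor3 was not called (-0.20, adjusted p = 0.434), but was lower with thinned UMIs (-0.81, adjusted p = 0.0483) and without tumour 3 (-0.65, adjusted p = 0.0302).

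Rest was called lower in the tumour states against both types, but not stably. Against immune-like cells Rest differed by -0.65 on the log2 scale (SE 0.102, adjusted p = 2.64e-06 in edgeR), although the mean CPM was higher in the tumour states of all 3 tumours (80.9 ± 11.1 against 75.5 ± 11.3, SD, n = 3). It was -0.12 with unscaled library sizes (adjusted p = 0.269) and -0.12 without the neuronal-like class in the mean (adjusted p = 0.334). Against endothelial-like cells, at 99.0, 101 and 107 CPM, it was -0.69 (SE 0.12, adjusted p = 1.49e-05 in edgeR), -0.16 without the neuronal-like class (adjusted p = 0.257) and -0.22 with thinned UMIs (adjusted p = 0.602). Rcor1 and Sin3a had log2 differences of -0.15 and -0.02 against immune-like cells, which turned to 0.38 (adjusted p = 0.00143) and 0.52 (adjusted p = 0.00449) with unscaled library sizes, where the median of all genes moved from 0.20 to 0.72. Rcor1 was called lower against immune-like cells in 5 of 14 alternatives, down to -0.45 without tumour 3 (adjusted p = 0.00178). Against endothelial-like cells Rcor1 differed by -0.27 (adjusted p = 0.104 in edgeR) and was called lower in 5 of 14 alternatives, down to -0.52 without tumour 3 (adjusted p = 0.0141).

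The REST targets were examined next, as a list of 20 neuronal genes known to be repressed by REST. In neuronal-like cells 18 of 20 were higher than in progenitor-like cells and 0 lower, where 12.6% of all genes were called in each direction, with a median log2 difference of 3.19 against -0.05 over all genes tested. Stmn2, a microtubule regulator of growing axons, was 650, 804 and 1021 CPM in neuronal-like and 24.3, 33.3 and 4.80 CPM in progenitor-like cells (log2 difference 5.53, SE 0.441, adjusted p = 5.89e-10 in edgeR). Snap25, a subunit of the vesicle fusion machinery, was 105, 182 and 119 against 18.4, 25.7 and 3.45 CPM (3.27, adjusted p = 2.51e-07). Syt1, the calcium sensor of synaptic vesicles, which was followed beside the list, was 154, 215 and 228 against 44.7, 41.0 and 67.3 CPM (1.80, adjusted p = 0.000116). None of these ranges overlapped, and the other large differences were those of Stmn3 (4.36), the adhesion gene L1cam (4.21), the granule genes Chga (4.12) and Chgb (3.99), and Syt4 (3.90). Bdnf and Kcnc1 were not called. As neuronal markers defined the class, neuronal genes as a group were bound to be high in it.

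In the states where Rest was not called, targets were called in both directions in stem-like and mesenchymal-like cells and only lower in cycling cells. Stem-like cells had 4 of 20 targets higher, the granule gene Scg2 (3.44), Stmn2 (1.95), the growth factor gene Bdnf (1.70) and Scg3 (0.95), and 1 lower, Chgb (-1.36), where 8.15% of all genes were higher and 4.78% lower, with a median of 0.24 against 0.00 over all genes. The Stmn2 difference ranged from 1.35 to 2.57 and was called in 10 of 13 alternatives, lost without tumour 2, with no replicate block and with gating at 1000 UMIs (highest adjusted p = 0.201). Mesenchymal-like cells had Scg2 (3.14), Bdnf (2.51) and the glutamate receptor gene Gria2 (1.10) higher and Kcnc1 (-2.42) and Stmn3 (-1.85) lower, where 12.6% of all genes were higher and 9.86% lower, with a median of -0.59 against -0.09. Cycling cells had 6 lower, Chgb (-3.21), the cadherin gene Celsr3 (-2.81), Snap25 (-2.27), Stmn3 (-1.51), the acetylcholine receptor gene Chrnb2 (-1.44) and Scg3 (-1.41), and 0 higher (0 in DESeq2 as well), where 6.66% of all genes were lower and 8.79% higher, with a median of -1.29 against -0.06.

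The promoter windows of members and targets were searched for the 2 parts of the RE1 element. Each window runs from 250 bases before to 50 bases after the gene start and comes from RefSeq (GRCm38.p6), and 5 of 6 members and 16 of 20 targets had one. Rest, Stmn2, Snap25, Syt4 and Vgf were not searched. The left part was searched as TTCAGCACC, the right part as GGACAGC and the core of both as AGCACCNNGGACAG, which overlaps both, on both strands. They occur in 0.371%, 6.56% and 0.0517% of all 32851 windows. Among the 5 members searched only Rcor2 had a match, to the right part, 68 bases before the RefSeq start, which lies downstream of the GENCODE gene start given above; at 6.56% of windows this match is common. Among the targets the left part occurred in 4 windows (Celsr3, Scg2, Syn1, Unc13a), the right part in 3 (Gria2, Scg2, Unc13a) and the core of both in 1 (Gria2, from 170 bases before the start). The list was chosen for known repression by REST, so matches in it are no independent result. The window of Rcor2 is shown whole as the member with a match, followed by stretches of the targets with the core (Gria2), with both parts (Scg2, Unc13a) and, of those with the left part alone, of Celsr3. Each reads 5' to 3' along its gene, with the matches in capitals; in the minus-strand matches of Gria2, Scg2 and Unc13a the capitals are the reverse complement of the letters above.
Rcor2 chr19:7267144-7267443 (plus strand): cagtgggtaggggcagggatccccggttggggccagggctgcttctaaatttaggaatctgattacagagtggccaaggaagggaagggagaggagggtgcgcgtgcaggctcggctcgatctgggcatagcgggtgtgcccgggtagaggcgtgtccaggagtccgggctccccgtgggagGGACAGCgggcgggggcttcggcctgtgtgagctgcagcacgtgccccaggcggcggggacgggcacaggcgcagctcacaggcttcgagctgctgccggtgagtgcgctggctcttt
Gria2 chr3:80802952-80803046 (minus strand): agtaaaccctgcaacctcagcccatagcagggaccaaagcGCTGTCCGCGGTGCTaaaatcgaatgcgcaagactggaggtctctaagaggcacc
Scg2 chr1:79439985-79440080 (minus strand): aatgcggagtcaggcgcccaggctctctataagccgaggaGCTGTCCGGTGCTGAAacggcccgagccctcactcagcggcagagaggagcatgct
Unc13a chr8:71671708-71671790 (minus strand): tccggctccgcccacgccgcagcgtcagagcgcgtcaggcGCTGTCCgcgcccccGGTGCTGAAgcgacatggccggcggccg
Celsr3 chr9:108825878-108825966 (plus strand): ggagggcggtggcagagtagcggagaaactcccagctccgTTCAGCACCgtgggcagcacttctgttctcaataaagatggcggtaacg

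In Gria2 the match to the left part covers only the letters of it that are in the core, in Scg2 the 2 parts adjoin with no gap, and in Unc13a they stand apart. All 4 targets were called higher in neuronal-like cells, with log2 differences of 3.37 for Gria2, 2.60 for the granule gene Scg2, 2.32 for the vesicle priming gene Unc13a and 3.11 for Celsr3. Scg2 was also higher in stem-like and mesenchymal-like cells, in which Rest was not called. A match is a description of the letters, and no binding was measured.

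The partner genes of the complex and the regulators of REST, a list of 24, are the surroundings of the members. From progenitor-like to neuronal-like cells 6 fell and 1 rose, where 25.2% of all genes were called, 12.6% lower and 12.6% higher. The median log2 difference was -0.05, beside -0.05 over all genes tested. Those that fell were Sap30 (-1.34) of the SIN3 complex, the phosphatase gene Ctdsp1 (-1.25), the CoREST subunit genes Hmg20b (-1.04) and Phf21a (-0.65), and Hdac1 (-0.89) and Rbbp7 (-0.80), shared by several deacetylase complexes. Srrm4, a splicing factor that in neurons switches Rest to a truncated form, rose by 3.59 on the log2 scale (SE 0.406, adjusted p = 2.17e-07 in edgeR). It was 90.1, 90.4 and 1.22 CPM in neuronal-like cells and 6.66, 6.60 and 0 CPM in progenitor-like cells, so tumour 3 had almost none. UMIs counted from the 3' end do not tell the forms of Rest apart. In stem-like cells Zmym3 and Rbbp7 were higher and Gse1 (-0.92), Smarca4 (-0.57), Ehmt1 and Hdac2 lower, with a median of -0.20. There 12.9% of all genes were called, 8.15% higher and 4.78% lower. In mesenchymal-like cells 2 were higher and 8 lower, among them Gse1 (-1.99), Hdac2 (-0.92) and Smarca4 (-0.77), with a median of -0.21. There 22.5% of all genes were called, 12.6% higher and 9.86% lower. In cycling cells 4 were higher and 3 lower, with a median of 0.11, where 15.5% of all genes were called, 8.79% higher and 6.66% lower.

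The genes whose pattern over 32 class sums was most like that of Rest were Zfp36l1 (Pearson r = 0.79), Dusp6 (0.78), Ptbp1 (0.76), Egr1 (0.76) and Srsf9 (0.75), among 7284 genes with at least 20 CPM on average, gate markers left out. Zfp36l1 encodes an RNA-binding protein, Dusp6 a phosphatase of the ERK kinases, Ptbp1 a splicing repressor of non-neuronal cells, Egr1 an immediate early factor and Srsf9 a splicing factor. The classes of a tumour share a library and 12 classes recur in the tumours, so these values are descriptions. Of the corepressors, Rcor1 stood 41st with r = 0.64, and Kdm1a had r = -0.21, Rcor3 r = -0.26 and Sin3a r = 0.15. The values for Snap25 and Stmn2 were -0.74 and -0.70, and that for Syt1 was -0.42.

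Rest was then related to the neuronal genes within single tumour cells, all thinned to 2000 UMIs, with the cells of several states included. A cell with a Rest UMI is called Rest-positive, and there were 746, 430 and 428 of them beside 4742, 2458 and 2288 Rest-negative cells in tumours 1, 2 and 3. A UMI of Stmn2, Snap25 or Syt1 was seen in 10.1, 18.4 and 13.6% of Rest-positive cells and in 15.2, 24.5 and 14.8% of Rest-negative cells. The share was lower in Rest-positive cells in 3 of 3 tumours, with differences of -5.19, -6.12 and -1.27 points, while the ranges over tumours overlapped. The mean difference was -4.19 ± 2.58 points (SD, n = 3; exact two-sided sign-flip permutation p = 0.25, the smallest that 3 tumours allow). Gene by gene it was -2.71 ± 1.16 points for Stmn2, -2.26 ± 1.54 for Snap25 and -1.39 ± 1.42 for Syt1, each lower in 3 of 3 tumours. For the general neuronal genes Dcx, Tubb3 and Elavl3, which are gate markers, it was -2.84 ± 2.05, -4.32 ± 1.64 and -3.93 ± 2.29 points. Each of them was lower in 3 of 3 tumours too, so the difference was not particular to Stmn2, Snap25 and Syt1. Immune-like cells are not known to make Stmn2, Snap25 or Syt1. A UMI of any of these was seen at the same depth in 2.23, 9.11 and 3.25% of immune-like cells, the most in tumour 2. At this level a UMI of these genes need not come from the cell itself.

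**Figure D4:**
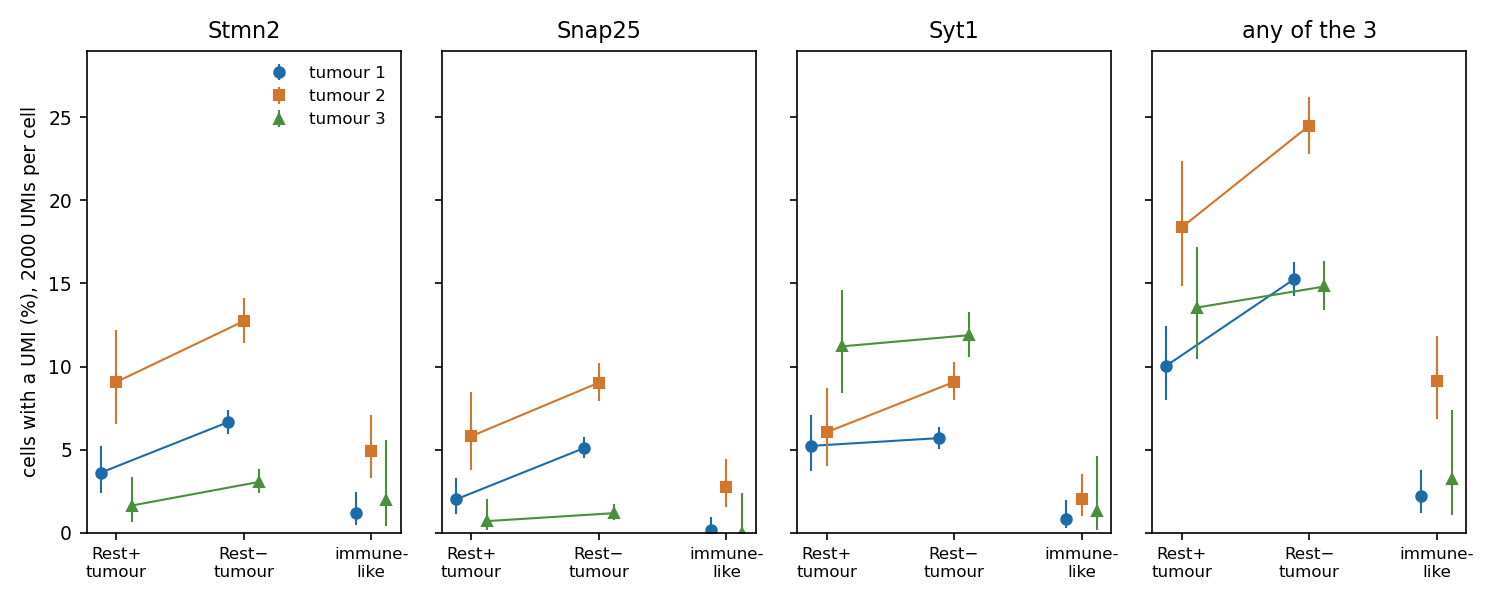
Share of cells with a UMI of Stmn2, Snap25, Syt1 or any of them (y axis, percent, 2000 UMIs per cell) in Rest-positive and Rest-negative tumour cells and in immune-like cells (x axis), 1 point per tumour with its exact 95% binomial interval, which covers counting error only. Each of the lines, which join the values of a tumour, rises from Rest-positive to Rest-negative cells; for any of the genes the rise is smallest in tumour 3 (13.6 to 14.8%).

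Without the neuronal-like cells the difference was smaller, at -1.92 ± 1.88 points, lower in 2 of 3 tumours (exact permutation p = 0.5). Within progenitor-like cells alone it was -3.18 ± 1.13 points, lower in 3 of 3 tumours (exact permutation p = 0.25), and within cells of no state -1.49 ± 4.19 points, lower in 2 of 3. Within cycling cells it was -4.91 ± 2.55 points, lower in 3 of 3, and within stem-like cells -1.53 ± 4.39 points, lower in 2 of 3. Mesenchymal-like cells went the other way in tumours 1 and 2, at 6.24 and 12.0 points, from 31 and 28 Rest-positive cells. Tumour 3 had 2 Rest-positive cells of this class, and the neuronal-like cells held only 8, 14 and 1, so no mean is given for either class. With 4000 UMIs per cell the difference over all tumour cells was -9.20 ± 2.22 points and with 1000 UMIs -4.55 ± 1.67 points, each lower in 3 of 3 tumours. The cells changed with the depth, since only cells with that many UMIs were used and at 1000 UMIs they were classed anew. The same split by Rcor2 went the other way. Cells with an Rcor2 UMI had a neuronal UMI in 18.4, 31.4 and 31.3% of cases against 14.4, 23.4 and 14.1% without one, a difference of 9.73 ± 6.73 points, higher in 3 of 3 tumours (exact permutation p = 0.25). For Rcor1, Rcor3, Kdm1a and Sin3a the differences were -1.63 ± 4.37, 0.13 ± 2.49, 0.66 ± 1.85 and -0.90 ± 0.817 points (SD, n = 3).

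The share of cells with a Rest UMI went down with the number of neuronal genes seen in the cell. With 0, 1 and 2 of Stmn2, Snap25 and Syt1 it was 14.3, 9.87 and 6.82% in tumour 1 and 15.9, 12.7 and 8.41% in tumour 2. In tumour 3 it was 16.0, 15.7 and 0%, the last from 0 of 26 cells, which allows a share of up to 11.5% by the limit of 3 counts (exact 95% upper bound 13.2%). The intervals for cells with 2 genes are wide, from 2.54 to 14.3% in tumour 1, and at 1 gene the share was below the interval of cells with none in tumours 1 and 2 but not in tumour 3. The cells with 2 genes were also more often neuronal-like, 43.2, 55.1 and 53.8% of them against 2.49, 4.12 and 0.604% of cells with none. For Rcor2 the shares were 2.45, 2.72 and 7.95% in tumour 1, 2.17, 2.76 and 5.61% in tumour 2 and 2.37, 5.96 and 7.69% in tumour 3. All 3 genes were seen in 30 cells of tumour 2, of which 1 (3.33%) had a Rest UMI and 1 an Rcor2 UMI, so the Rcor2 share was lower there than with 2 genes, with an interval of 0.0844 to 17.2%.

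**Figure D5:**
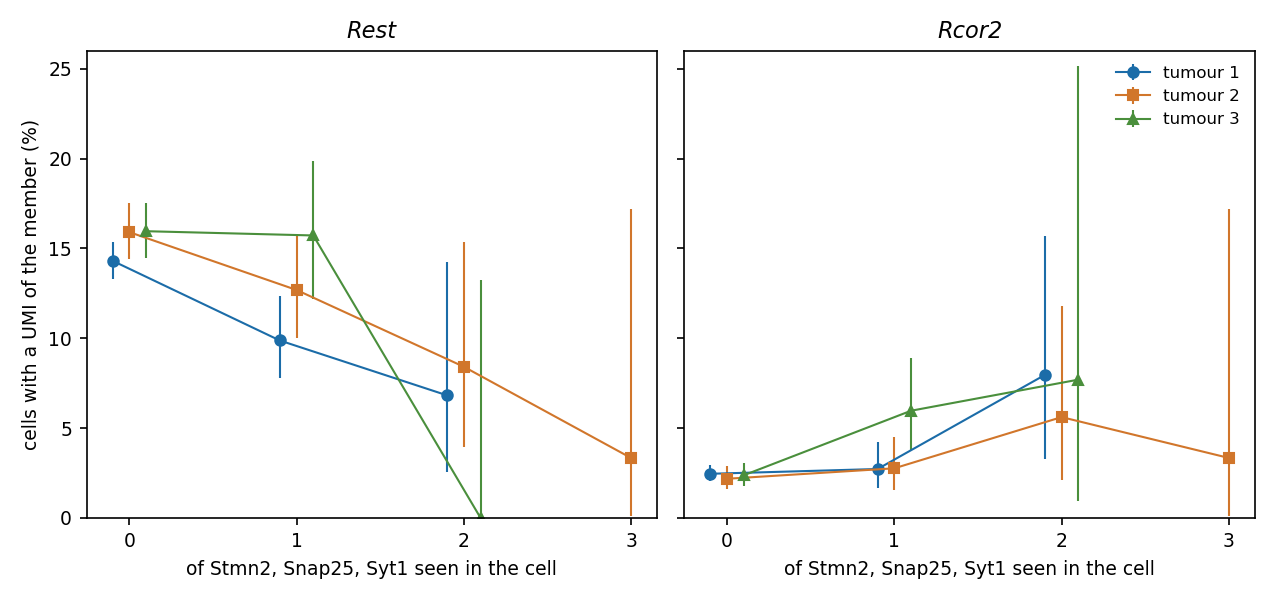
Share of tumour cells with a UMI of Rest (left) or Rcor2 (right) at 2000 UMIs per cell (y axis, percent), by how many of Stmn2, Snap25 and Syt1 were seen in the cell (x axis); points are tumours with exact 95% binomial intervals, and groups under 20 cells are not drawn. From 0 to 2 genes seen, the Rest share drops (14.3 to 6.82% in tumour 1) and the Rcor2 share climbs (2.45 to 7.95% in tumour 1), with intervals that widen as cells become few; with 3 genes, drawn for tumour 2 alone, both shares are 3.33%.

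Across all genes, the sums of Rest-positive and Rest-negative cells differed in 92 of 11865 genes tested (0.775%), 20 higher (0.169%) and 72 lower (0.607%) in Rest-positive cells, by edgeR with the tumour as a block. None of the other 5 members was called (0 with an unadjusted p under 0.05 in edgeR, 0 called in DESeq2). Rcor1 was 64.6 ± 19.2 against 54.5 ± 20.1 CPM (log2 difference 0.23, SE 0.117) and Kdm1a 196 ± 25.5 against 193 ± 32.3 CPM (0.02, SE 0.0711; SD, n = 3). Stmn2 was lower in Rest-positive cells, with a log2 difference of -1.32 (SE 0.129, adjusted p = 7.97e-07), and Snap25 by -0.94 (SE 0.189, adjusted p = 0.00854), while Syt1 at -0.38 was not called (adjusted p = 0.24). The gate markers Tubb3 (-1.44, adjusted p = 1.93e-06), Elavl3 (-1.18, adjusted p = 7.84e-05) and Dcx (-1.14, adjusted p = 0.000809) were called lower too, all in edgeR. Stmn2 was called in 9 of 11 alternatives and lost with 1000 UMIs per cell (-0.41, adjusted p = 0.713) and with no replicate block. Syt1 was called with 1000 UMIs (-1.24, adjusted p = 0.00382) and with 4000 UMIs (-0.53, adjusted p = 0.000699). Snap25 was called in 6 of 11 alternatives and lost without tumour 1 (-0.68, adjusted p = 0.483), at 1000 UMIs (-1.25, adjusted p = 0.0856), in DESeq2 (-0.91), with no replicate block (-0.89) and without the neuronal-like cells. Of the 19 targets tested 5 were lower, Stmn2, Chgb, Stmn3, Snap25 and Gria2, and 0 higher (0 in DESeq2 as well), where 0.607% of all genes were lower and 0.169% higher. The median was -0.90 against 0.00 over all genes. Of the 24 partner genes 0 were called in edgeR, where 2 had an unadjusted p under 0.05, and 0 in DESeq2. Without the neuronal-like cells 36 genes were called, Stmn2 still among them (-0.67, adjusted p = 0.0296) and Snap25 not (-0.85, adjusted p = 0.0649). The count rested strongly on the fit: it was 0 with no replicate block (91 genes with an unadjusted p under 0.05), 17 in DESeq2, and 42, 77 and 218 without tumours 1, 2 and 3.

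Within single tumour cells few UMIs of each member were counted. None of the 6 was seen in 44.5, 45.4 and 45.0% of tumour cells at 2000 UMIs. Kdm1a was seen in 34.9, 31.4 and 28.5% of Rest-positive and 35.4, 30.9 and 27.1% of Rest-negative cells. It was seen in 46.1, 34.3 and 42.5% of cells with an Rcor2 UMI, against 35.0, 30.9 and 26.9% of the others, higher in 3 of 3 tumours. No test was made on these pairs.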

How the data were processed

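Single-cell RNA-seq libraries (10x, 3' end) of 3 tumours were deposited as UMI counts per gene and cell barcode, which the authors made with Cell Ranger 3.1.0 on mm10, without normalisation. The authors' removal of non-tumour cells was not applied. Barcodes with few genes or many mitochondrial UMIs were removed per tumour, then doublets scored by Scrublet (scanpy 1.11.5) at a fixed rate of 0.8% per 1000 cells (7.63, 6.05 and 4.00%), leaving 8848, 7180 and 4879 cells, of which 6509, 3937 and 3018 reached 2000 UMIs. Like-cell doublets and free RNA were not corrected for.

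Cells were thinned to 2000 UMIs and classed when the markers of a list reached 3 to 6 UMIs from 2 or 3 genes (neuronal-like: 4 UMIs, 3 genes). The thresholds were set after the marker counts had been seen. The members and gene lists were chosen with earlier results of these data known. Full counts were summed per tumour and class (at least 20 cells) and fitted together in edgeR 4.0.16 (R 4.3.3) with TMM, filterByExpr and terms for class and tumour, checked on simulated data. Class sums of a tumour come from the same animal, which is the pairing; the numbers 1 to 3 only name the tumours. Shares have exact binomial and CPM exact Poisson intervals (95%, counting error only). CPM are UMIs per 1000000 UMIs of a class sum. Correlations used log2(CPM + 5), centred per tumour. Positions are from GENCODE M21. Named genes are members, Stmn2, Snap25, Syt1, Dcx, Tubb3, Elavl3, checks of the gates, and up to 6 called genes of each list per comparison. Others are named beside a sequence or a count. Alternatives changed the scaling, test, filter, block, gates, depth, doublets or tumours; those on unscaled libraries, astro-glial-like cells and neuronal-like cells were chosen after seeing the data.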

Additional observations from a re-analysis of the deposited data

How the results depend on the processing

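Of 535 alternatives for single members, 467 kept their direction and side of the threshold, 27 lost a call, 14 gained one and 27 changed sign, all among members not called in the reported fit. The number of members called was 3 for neuronal-like, 2 for stem-like, 2 for mesenchymal-like and 1 for cycling cells. With thinned UMIs it was 1, 1, 0 and 1, and with no replicate block, which ignores that classes share an animal, 2, 1, 0 and 0. Without doublet removal 1 was called in mesenchymal-like cells. Leaving out a tumour gave 2 to 3, 0 to 2, 0 to 2 and 0 to 1, and 3 to 5 against either host type (4 and 3 reported). The 92 genes of the Rest split became 17 in DESeq2, 176 with no low-count filter, 0 with no replicate block, 20 at 1000 UMIs, 271 at 4000 UMIs, 36 without neuronal-like cells, and 42 to 218 without a tumour. The share of higher calls moved from 50.1% to 62.4% (RLE) and 67.1% (unscaled) in neuronal-like, from 63.0% to 73.4% (RLE) in stem-like, from 56.1% to 70.6% (RLE) in mesenchymal-like cells and from 55.3% to 73.9% (unscaled) against immune-like cells.

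The log2 differences that changed sign were these. With thinned UMIs Rcor1 in mesenchymal-like cells was 0.10, Rest, Rcor3 and Sin3a in cycling cells -0.091, 0.44 and -0.0033, Rcor1 against immune-like cells 0.21 and Sin3a against endothelial-like cells -0.11. Rcor3 in cycling cells was 0.0106 with RLE, 0.0108 in DESeq2, 0.0017 with no filter, 0.093 with the stricter gate, 0.023 at 1000 UMIs, 0.019 without doublet removal, 0.031 without the astro-glial-like cells of tumour 1 and -0.053 to 0.014 without a tumour. Against immune-like cells Rcor1 was 0.38 unscaled and 0.0089 without the neuronal-like class, and Sin3a 0.52, 0.042 and, with no replicate block, 0.00021. Sin3a against endothelial-like cells was -0.0055 when gated at 1000 UMIs and -0.13 to 0.35 without a tumour. In the Rest split Rcor3 was 0.24 at 1000 and 0.016 at 4000 UMIs and Kdm1a -0.021 with no filter, and without a tumour Rcor2 ranged from -0.34 to 0.0062 and Kdm1a from -0.0078 to 0.050. The cause was not tested. The neuronal-like Rest values rest on 13 to 36 UMIs per tumour.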

Other observations

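Mir124-2hg and Mir124a-1hg are host genes of miR-124, a neuronal microRNA whose genes REST is known to repress, and were named after their values had been seen. Mir124-2hg stood at 219 ± 35.6 CPM in neuronal-like cells, against 121 ± 38.5 CPM in the progenitor-like class (SD, n = 3), a log2 difference of 0.75 (adjusted p = 0.0031 in edgeR), higher in 3 of 3 tumours. Mir124a-1hg was 118 ± 7.85 against 76.8 ± 14.7 CPM (log2 difference 0.46, adjusted p = 0.129 in edgeR). In states where Rest was not called, Mir124a-1hg was lower than in progenitor-like cells, by -0.80 in stem-like (adjusted p = 0.0107), -0.91 in mesenchymal-like (adjusted p = 0.0161) and -1.06 in cycling cells (adjusted p = 0.00101), and Mir124-2hg in mesenchymal-like cells by -0.84 (adjusted p = 0.00747), all log2 differences in edgeR. These calls of Mir124a-1hg held in 9, 6 and 12 of 13 alternatives in stem-like, mesenchymal-like and cycling cells, and that of Mir124-2hg in 8 of 13. All 4 were lost without tumour 1, and in mesenchymal-like cells the values ranged from -1.21 to -0.38 (highest adjusted p = 0.636) for Mir124a-1hg and from -0.94 to -0.14 (highest adjusted p = 0.764) for Mir124-2hg. Immune-like cells had 12.6 ± 3.37 and 8.55 ± 4.24 CPM of Mir124-2hg and Mir124a-1hg. Endothelial-like cells had 4.94 ± 3.55 and 3.40 ± 2.19 CPM of them (SD, n = 3). Rest was 86.6 to 111 CPM in progenitor-like, 66.0 to 88.0 CPM in immune-like and 99.0 to 107 CPM in endothelial-like cells. A link between the level of Rest and that of the host genes was not tested.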
